A study of Mus musculus with 2 samples.

Results

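Elovl1 to Elovl6 encode 6 of the fatty acid elongases of the mouse, and their probes were read here in interscapular brown fat of double-knockout (DKO) and wild-type (WT) mice. The genes were taken by name: every non-control spot whose gene name in the scanner files is Elovl1, Elovl2, Elovl3, Elovl4, Elovl5 or Elovl6. That gave 6 probes, 1 per gene, among 41174 distinct probes for 36093 genes and transcripts on the array. Per the labels, DKO mice lack 2 genes, one of which is Rora (RORa-/-), a nuclear receptor that binds DNA, and WT mice carry neither knockout. Both genotypes were male C57BL/6 mice aged 2 to 3 months, 4 per genotype, with tissue taken near circadian time 20. Which part of each gene was lost is not given in the labels. RNA of both genotypes was hybridised together on each of 2 two-colour arrays, DKO being labelled with Cy5 on the first array and with Cy3 on the reversed array.

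Fatty acids longer than palmitate are built in the endoplasmic reticulum by a cycle of condensation, reduction, dehydration and a further reduction, which adds carbon from malonyl-CoA. Elovl proteins carry out the condensation, the step that sets which chains are lengthened, while the other steps are shared by all chain lengths. In brown fat, Elovl3 is known as a gene that cold exposure induces, and elongated fatty acids there go into triglycerides, membranes and sphingolipids.

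The labels leave unsaid if RNA was pooled over the 4 animals, and if the same extracts went onto both arrays. For that reason each genotype was counted as 1 replicate, and no test between genotypes was possible. Ratios are log2 of DKO over WT, given for each array and as the mean ± SD of both (n = 2 arrays). Dye effects and measurement error enter that SD, and whether any spread between animals does is not known. Calling a gene required a mean difference of 2-fold or more, a difference of 1.5-fold or more in that direction on each of the arrays, and a signal well above background wherever the higher genotype was read. It counted as measured if at least 1 genotype was well above background on both. Of the 6 Elovl genes, 5 were measured, and Elovl4 was not.

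Across the array, 77.6% to 85.4% of probe spots were well above background, depending on dye and array. Of 14097 measured genes with a symbol, 24 were called higher in DKO (0.170%) and 7 lower (0.0497%), against 41 and 20 with the scanner software's own ratios. The same size rule called 0.0987% of probes higher and 0.0216% lower, and 0.101% and 0.0244% of all genes and transcripts. It called 0.00349% of the latter when the sign was left to follow the dyes, a figure that concerns large ratios only. Over all measured genes the ratios of the arrays were barely correlated (r = 0.0773). Just 19.2% of measured genes with a symbol had a pair of positive ratios, and 19.2% a negative pair. Small ratios of like sign are thus weak evidence of a difference. The 2 Rora probes, which bear on the labels only if they lie in the lost part, read −0.38 ± 0.045 and −0.47 ± 0.10. Their spots were faint, so the offset of 50 added in the fit shrinks these ratios, and the scanner software gave −0.96 ± 0.072 and −1.52 ± 0.14. All 8 brown adipocyte markers looked up were measured, among them Ucp1, the uncoupling protein of heat production, at 0.73 ± 0.0047. In whole tissue, fewer cells of a type and less RNA per cell cannot be told apart.

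Elovl3 was the one elongase gene called, and it was higher in DKO brown fat. Elovl3 makes saturated and monounsaturated very-long-chain fatty acids and is known from brown fat and from sebaceous glands of the skin. Its mean spot signal was 3859 (Cy5) and 2700 (Cy3) in DKO, against 1226 (Cy3) and 1694 (Cy5) in WT, over local backgrounds of 57 to 72. Both DKO signals lay above both WT signals, although the dyes were reversed. On the normalised log2 scale Elovl3 stood at 11.59 and 11.57 in DKO and at 10.56 and 10.57 in WT. The difference between genotypes was wider than the gap between arrays, but levels on this scale had been matched across arrays in processing. Whether that gap holds any spread between animals is not known. The ratios were 1.03 on the first array and 1.004 on the reversed one, a mean of 1.02 ± 0.018, or 2.02-fold. The dye component, which is the part of the ratio that turns sign with the dyes, was 0.012. Elovl3 thus sat just past the 2-fold line, at rank 23 from the highest of 14097 measured genes. The p-values deposited with the software's ratios, which cover measurement error on one array, were 2.74e-09 and 1.59e-08.

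**Figure D1:**
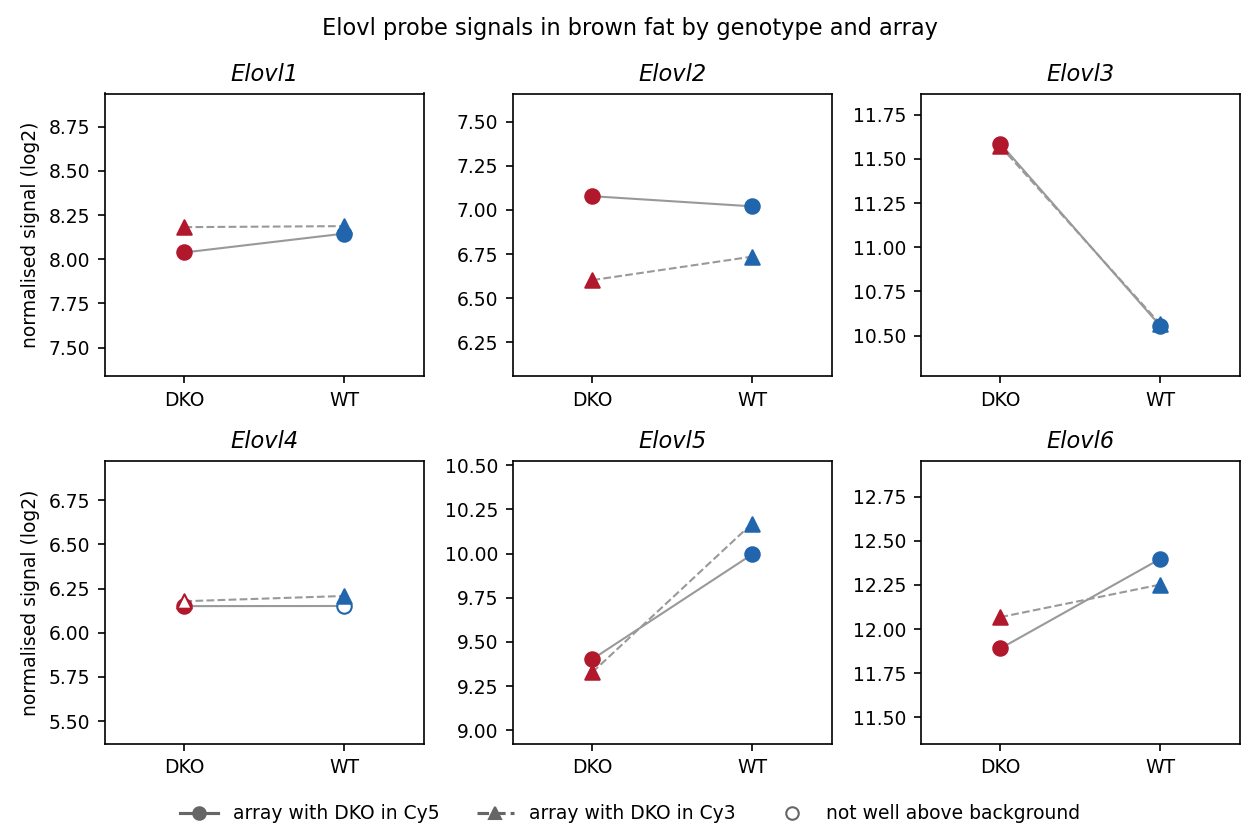
Normalised log2 signal of each Elovl probe in DKO (left, red) and WT (right, blue) on the array with DKO in Cy5 (circles, solid line) and the array with DKO in Cy3 (triangles, dashed line). Open symbols were not well above background, every panel spans the same range of 1.6 log2 units, and heights are not comparable between panels because each gene has its own probe. Elovl3 stands at 11.59 and 11.57 in DKO and 10.56 and 10.57 in WT.

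Elovl5 read lower in DKO on both arrays, without passing the 2-fold rule. It lengthens polyunsaturated fatty acids between the desaturation steps and is expressed in most tissues. Its mean signal was 877 (Cy5) and 564 (Cy3) in DKO, against 861 (Cy3) and 1260 (Cy5) in WT. The raw signals of the genotypes overlap, and they still hold the difference between dyes. After normalisation the genotypes separated, with log2 levels of 9.40 and 9.33 in DKO and 9.99 and 10.17 in WT. The ratios were −0.59 and −0.84, a mean of −0.72 ± 0.18, or a DKO level 0.608 times that of WT. Elovl5 stood at rank 36 from the lowest of 14097. The deposited p-values were 0.000256 and 1.45e-07, so each array's own measurement error was smaller than the difference.

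A further probe carries the Elovl5 RefSeq accession but is filed under a clone name, so the naming rule did not take it. It read −0.71 and −0.38, a mean of −0.54 ± 0.24, and its deposited p-values were 2.4e-06 and 0.00384. Both Elovl5 probes lay below 0 on both arrays. Their dye components had opposite signs, 0.12 for the named probe and −0.17 for the other.

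Elovl6 also read lower in DKO on both arrays, by less and less evenly. It lengthens palmitate toward stearate, the substrate that stearoyl-CoA desaturases use, and its transcription is known to depend on SREBP-1. The mean signal was 4728 (Cy5) and 3860 (Cy3) in DKO, against 4299 (Cy3) and 5546 (Cy5) in WT. These raw signals of the genotypes overlap. Normalised log2 levels, matched across arrays, were 11.89 and 12.07 in DKO and 12.40 and 12.25 in WT. The genotypes did not overlap on this scale. The ratios were −0.51 on the first array and −0.18 on the reversed one, a mean of −0.35 ± 0.23. The size of the difference thus depends on the array. The deposited p-value was 0.00306 on the first array and 0.239 on the second, where the difference was not beyond that array's measurement error. Elovl6 stood at rank 178 from the lowest.

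**Figure D2:**
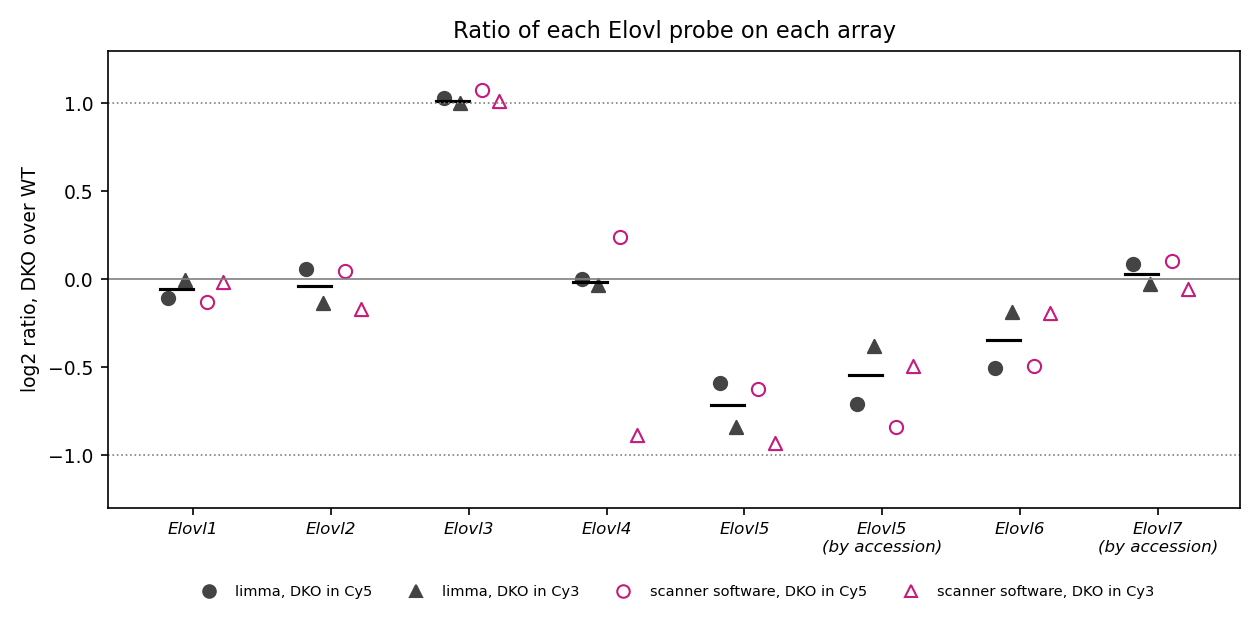
Log2 ratio of DKO over WT for each Elovl probe on the array with DKO in Cy5 (circles) and with DKO in Cy3 (triangles), from limma (filled, black bar at their mean) and from the scanner software (open). Dotted lines mark 2-fold, Elovl5 and Elovl6 lie below 0 on both arrays, and the probes marked by accession were found outside the naming rule.

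For Elovl5 and Elovl6, the 250 bases before the transcription starts are shown, as RefSeq gives them on GRCm38.p6. These genes were picked after their values were seen, and a shared cause of their lower readings was not tested. Capitals mark matches, on either strand, to AGGTCA, the core motif of nuclear receptors, to CACGTG, the E-box, or to TCACNCCAC, a sterol regulatory element. Both genes lie on the forward strand, at chr9:77917115-77917364 for Elovl5 and chr3:129532136-129532385 for Elovl6.
Elovl5: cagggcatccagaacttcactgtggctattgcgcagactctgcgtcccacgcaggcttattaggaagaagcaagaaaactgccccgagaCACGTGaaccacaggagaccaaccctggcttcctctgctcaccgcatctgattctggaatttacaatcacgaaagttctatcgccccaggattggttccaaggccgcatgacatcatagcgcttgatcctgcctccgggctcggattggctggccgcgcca
Elovl6: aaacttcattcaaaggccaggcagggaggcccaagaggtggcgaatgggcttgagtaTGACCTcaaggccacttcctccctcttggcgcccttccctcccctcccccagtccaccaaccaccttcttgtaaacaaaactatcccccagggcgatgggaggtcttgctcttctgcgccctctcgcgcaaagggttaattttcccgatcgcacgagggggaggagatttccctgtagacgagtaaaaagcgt
Elovl6 held one AGGTCA match, on the reverse strand, whose first base lies 193 bases before the start, and Elovl5 held none. Elovl5 held one E-box match, starting 161 bases before the start, and Elovl6 held none. No match to the sterol element was found in either window. Among 32851 promoters of the same length, 14.0% held AGGTCA, 6.02% held CACGTG and 1.05% held TCACNCCAC. Of 7 promoter entries for 5 Elovl genes, the only other match to any of these motifs was an AGGTCA in one of the Elovl1 entries, 95 bases before that start. These matches describe letters in these windows and say nothing of binding. Elovl3 was matched to no promoter entry.

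Elovl1 and Elovl2 gave ratios near 0. Elovl1 makes saturated very-long-chain fatty acids, such as those of sphingolipids, in most tissues. Its mean signal was 345 (Cy5) and 250.1 (Cy3) in DKO, against 259 (Cy3) and 299.8 (Cy5) in WT. The ratios were −0.11 and −0.0057, a mean of −0.056 ± 0.071, and 38.5% of measured genes had a ratio of larger size. Both arrays put Elovl1 below 0, and the mean lay within the SD of the arrays.

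Elovl2 lengthens polyunsaturated fatty acids, chiefly in liver, retina and testis. Its spots were faint, with mean signals of 166 (Cy5) and 99.9 (Cy3) in DKO and 131.5 (Cy3) and 106 (Cy5) in WT over backgrounds of 58 to 74. The ratios differed in sign, at 0.057 and −0.13, with a mean of −0.038 ± 0.13. The offset of 50 shrinks ratios of signals this close to background toward 0, so these values do not show that Elovl2 was alike in both genotypes.

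Elovl4 builds the longest fatty acids of skin and retina, and it was not measured here. Its mean signals were 75.8 (Cy5) and 73.4 (Cy3) in DKO and 77.0 (Cy3) and 72.1 (Cy5) in WT, over backgrounds of 56 to 71. The spot was well above background in Cy5 on both arrays and in Cy3 on neither, so DKO passed on one array and WT on the other. Its ratios of −0.00080 and −0.030 are therefore no measurement of the genotypes, and the scanner software gave 0.24 and −0.88. Elovl7, a further elongase of saturated chains outside the set, was found by accession under another file name and read 0.085 and −0.0245, a mean of 0.0305 ± 0.078.

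Set against all genes, 1 of the 5 measured Elovl genes was called higher, where 0.170% of measured genes with a symbol were, and none lower, where 0.0497% were. By the software's error model on both arrays (p under 0.01, same direction), Elovl3 was higher and Elovl5 lower, against 0.766% and 0.589% of genes. Elovl3 lay above 0 on both arrays, as did 19.2% of genes, and Elovl1, Elovl5 and Elovl6 lay below 0 on both, as did 19.2%. The median of the 5 was −0.056, against 0.00080 for all measured genes with a symbol.

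**Figure D3:**
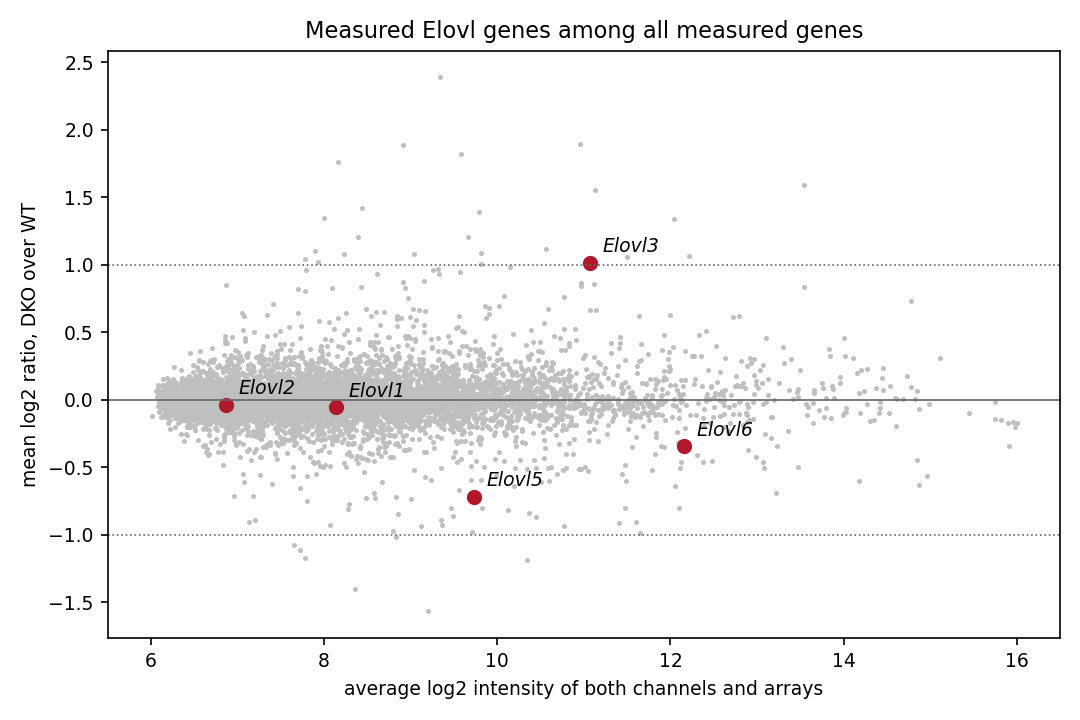
Mean log2 ratio of DKO over WT against average log2 intensity for the 14097 measured genes with a symbol (grey), with the 5 measured Elovl genes in red. Elovl3 lies at the upper 2-fold line (dotted) at 1.02, and Elovl5 at −0.72 and Elovl6 at −0.35 lie between 0 and the lower line.

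The genes whose pair of ratios lay closest to a member were found by Euclidean distance over both arrays, which is likeness over 2 values only. For Elovl3 they were the muscle myosin gene Myh2 (0.99 and 0.95, distance 0.069), Ankrd23 (0.998 and 1.09, distance 0.089) and Gabarapl1 (1.02 and 1.12, distance 0.11). For Elovl5 they were Mal2 (−0.62 and −0.81, distance 0.039), Dhcr7 of cholesterol synthesis (−0.52 and −0.94, distance 0.13) and Gsta3 (−0.74 and −0.81, distance 0.15).

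The other enzymes of the elongation cycle did not move as one. None of 7 measured genes was called, beside 0.170% of measured genes with a symbol called higher and 0.0497% lower. With shares that small, no call in a list this short says little. By the software's error model on both arrays, 1 of the 7 was higher and none lower, beside 0.766% and 0.589% of those genes. On both arrays 3 were above 0 and 1 was below, beside 19.2% of measured genes with a symbol either way. Their median was 0.11. Hacd2, a dehydratase of the third step, read 0.76 and 0.57, a mean of 0.67 ± 0.13. Tecr, the reductase that ends the cycle, read −0.42 and −0.36, a mean of −0.39 ± 0.044. Hsd17b12, the reductase that follows condensation, differed between arrays (0.30 ± 0.44) and between probes, the fainter of which read −0.024 ± 0.00040. Hacd2 and Tecr are named for having the largest ratios of the list, and no link of either to an Elovl gene was tested.

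Desaturases, which put double bonds into the chains that elongases make or receive, gave no called gene among 9 measured. Over all measured genes with a symbol, 0.170% were called higher and 0.0497% lower. By the software's error model on both arrays, 2 of the 9 were lower and none higher, beside 0.589% and 0.766% of those genes. The desaturase median was −0.0070, with 1 above 0 on both arrays and 3 below, beside 19.2% of measured genes with a symbol either way. Scd2, a stearoyl-CoA desaturase, read −1.10 and −0.71, a mean of −0.91 ± 0.28. Fads3 read −0.81 ± 0.10, and −0.39 ± 0.035 by a fainter probe. Scd1, the main stearoyl-CoA desaturase of fat, read −0.56 ± 0.17. The Scd genes are close paralogs, and cross-hybridisation between their probes was not resolved. Fads1 and Fads2, which act beside Elovl5 on polyunsaturated chains, read −0.0061 ± 0.023 and −0.090 ± 0.17.

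Among 9 measured genes of malonyl-CoA and acyl-CoA supply, 1 was called lower and none higher, beside 0.0497% and 0.170% of measured genes with a symbol. By the software's error model on both arrays, 4 of the 9 were lower and 1 higher, beside 0.589% and 0.766% of measured genes with a symbol. On both arrays 6 lay below 0 and 1 above, beside 19.2% of those genes either way. The 6 include Olah, a faint probe at −0.024 ± 0.010, and Fasn, at −0.0014 on the reversed array. The called gene was Acss2, which makes acetyl-CoA from acetate, at −1.38 and −0.99, a mean of −1.19 ± 0.28, with −0.84 ± 0.018 by its other probe. Acly, which makes cytosolic acetyl-CoA from citrate, read −0.99 ± 0.38, and Me1, a source of NADPH, read −0.91 ± 0.17. Mlycd, which breaks malonyl-CoA down, went the other way at 0.66 ± 0.11. The list's median was −0.34, but −0.62 on the first array and −0.017 on the reversed one. The median value is that of Fasn, fatty acid synthase, whose probe was marked as saturated. Acaca and Acacb matched no probe in use.

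**Figure D4:**
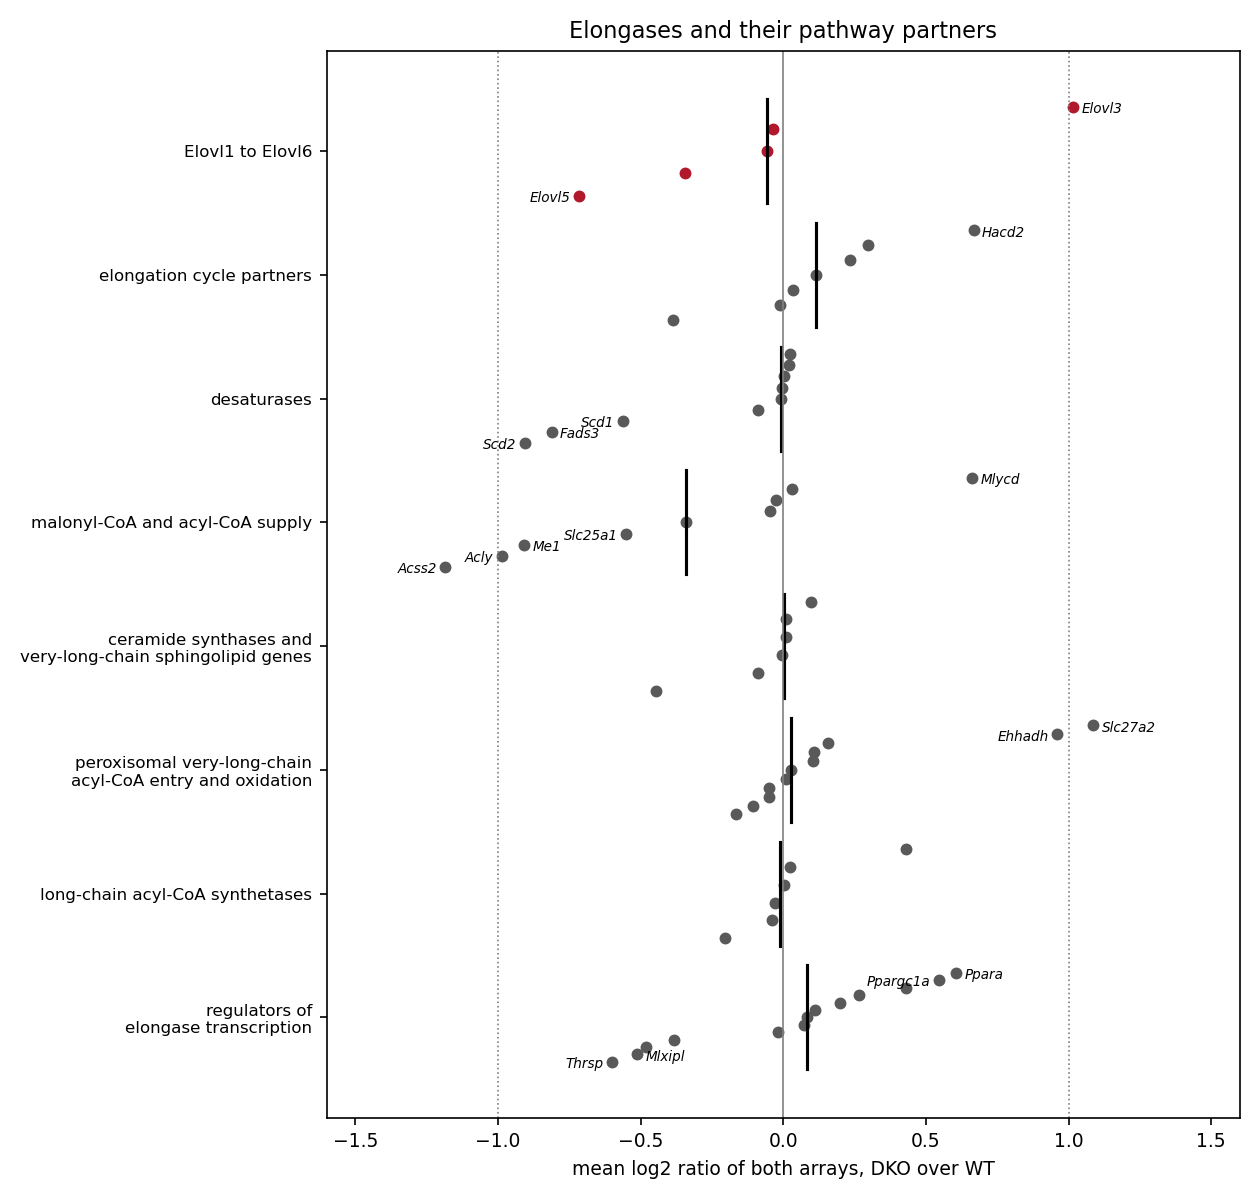
Mean log2 ratio of DKO over WT for measured genes of each list, with the measured Elovl genes in red at the top, a black bar at each list's median and dotted lines at 2-fold. Genes of size 0.5 or more are named, the height within a row only spreads the points, and Acss2 (−1.19), Elovl3 (1.02) and Slc27a2 (1.09) are the genes past the lines.

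Genes that use very-long-chain products gave mixed values. No ceramide synthase or related sphingolipid gene was called among 6 measured (median 0.0029). Over all measured genes with a symbol, 0.170% were called higher and 0.0497% lower, so no call in a list this short says little. Cers2, the ceramide synthase that takes very-long-chain acyl-CoA, read −0.45 ± 0.21, and Sptlc1, a subunit of serine palmitoyltransferase, read 0.098 ± 0.25. Of 11 measured genes of peroxisomal very-long-chain oxidation, 1 was called higher and none lower, beside 0.170% and 0.0497% of measured genes with a symbol. Their median was 0.026. By the software's error model on both arrays, 2 of the 11 were higher and none lower, beside 0.766% and 0.589% of those genes with a symbol. The called gene was Slc27a2, a very-long-chain acyl-CoA synthetase, at 1.02 and 1.16, a mean of 1.09 ± 0.10. Its other probes read 0.37 ± 0.077 and 0.0645 ± 0.060, so the size rests on the brightest probe. Ehhadh, an enzyme of peroxisomal oxidation, read 0.96 ± 0.16. Among 6 long-chain acyl-CoA synthetases (median −0.012) none was called, beside the same shares, with Acsl1 at 0.43 ± 0.20 and Slc27a1 at −0.20 ± 0.10. Neither the synthetases nor the ceramide genes held a gene past the software's error model on both arrays.

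Regulators of elongase transcription gave no called gene among 13 measured, with a median of 0.082. Over all measured genes with a symbol, 0.170% were called higher and 0.0497% lower. By the software's error model on both arrays, 2 of the 13 were higher and none lower, beside 0.766% and 0.589% of those genes. On both arrays 4 lay above 0 and 4 below, beside 19.2% of measured genes with a symbol either way. Ppara, a nuclear receptor that responds to fatty acids, read 0.63 and 0.58, a mean of 0.61 ± 0.037. Its coactivator Ppargc1a read 0.54 ± 0.035, and 0.14 ± 0.074 by a fainter probe. Thrsp, a lipogenic gene, read −0.60 ± 0.38. Srebf1, which encodes SREBP-1, read −0.48 ± 0.29, and Mlxipl, which encodes the carbohydrate-responsive factor ChREBP, read −0.51 ± 0.43, both below 0 on both arrays. A fainter Mlxipl probe read −0.55 ± 0.012. Ppargc1a, Srebf1 and Mlxipl were added after their values were seen, and no link between a regulator and an Elovl gene was tested.

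Markers of other cell types were read beside these values. The 8 brown adipocyte markers had a median of 0.36 with Elovl3 among them, and the other 7 had a median of 0.18, a value taken after the data were seen. Of those 7, Dio2, the deiodinase that activates thyroid hormone, was called higher, at 1.89 ± 0.32. Over all measured genes with a symbol, 0.170% were called higher and 0.0497% lower. Ucp1 (0.73 ± 0.0047) and Ppargc1a (0.54 ± 0.035) lay above 0 on both arrays, and a fainter Ppargc1a probe read 0.14 ± 0.074. Of all 8 markers, 5 lay above 0 on both arrays and 1 below, beside 19.2% of measured genes with a symbol either way. Cidea, a lipid droplet protein of brown fat, read −0.14 ± 0.0235 and was below 0 on both arrays, with its probe marked as saturated. Prdm16 (−0.075 ± 0.29) and the cytochrome oxidase subunit genes Cox8b (0.0077 ± 0.30) and Cox7a1 (0.18 ± 0.19) had means smaller than their SD. For 7 general adipocyte markers the median was −0.00030 with none called, but −0.0895 on the first array and 0.24 on the reversed one. Of 11 skeletal muscle markers, 2 were called higher, Eno3 (1.21 ± 0.33) and Mb (1.004 ± 0.39), beside 0.170% of measured genes with a symbol. On both arrays 9 muscle markers lay above 0, beside 19.2% of those genes. By the software's error model on both arrays, 4 of 8 brown adipocyte, 1 of 7 general adipocyte and 6 of 11 muscle markers were higher. None of these was lower by that model, which called 0.766% of measured genes with a symbol higher and 0.589% lower. The median of the muscle list was 0.44 on the first array and 0.94 on the reversed one. The summed processed signal of that list was 195330 and 260277 in DKO against 141788 and 145794 in WT. The part of muscle RNA in the Elovl3 value was not tested.

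Since skin also expresses Elovl3, 7 measured markers of sebaceous gland and skin were read, with none called and a median of 0.032. Their summed processed signal was 21987 and 17156 in DKO, against 20819 and 17128 in WT, and Awat2, a wax synthase of sebaceous glands, was not measured. Macrophage markers (5 measured, median 0.057), nerve and Schwann cell markers (5 measured, median −0.044) and liver markers (3 measured, median 0.071) gave no called gene. Over all measured genes with a symbol, 0.170% were called higher and 0.0497% lower, so no call in lists this short says little.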

How the data were processed

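Each array received 750 ng of amplified cRNA in either dye and was hybridised for 17 hours, per the labels' protocols. Image extraction by the authors used Agilent Feature Extraction 7.5, per the submitters' processing notes. The deposited files hold mean, median and background signals as intensity, not normalised, per the file headers. Beside them are log10 values of the red to green ratio, detrended and dye-normalised by the software, and a p-value of each from its error model, per the file headers. The deposited series table holds log2 ratios of red over green, within 0.001 of the scanner files for 40962 of 41001 and 41101 of 41141 values, each column with a median of 0. The software's 0/1 flags, deposited in the same files, were used as given: a spot is well above background past 2.6 background SDs, per the file headers.

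Here, mean signals were corrected by normexp against local background (offset 50, which shrinks ratios of faint probes) and loess-normalised within arrays, with control spots given no weight (limma 3.58.1, R 4.3.3). Levels were set across arrays by Aquantile. Outlier spots were left out (171 and 29), saturated ones kept, and signs turned to DKO over WT. Probes were named through a RefSeq table of GRCm38.p6: 11450 by accession, 2296 by symbol, 1307 by older symbol, 5798 by another accession of the probe, and 20323 kept the file's name. A gene was represented by its brightest measured probe. The procedure was tested on simulated data, with known folds given only to brighter probes and a smooth dye trend. That test covers neither faint probes, such as those of Elovl2 and Elovl4, nor dye effects of single probes. Alternatives covered offset, software ratios, median signals, centring, loess spots, the series table, dim filter, probe rule, size thresholds, error model and single arrays. With 2 arrays, their number limits the precision.

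The genes and lists were chosen with earlier results of these data known. Named genes were every Elovl probe, Rora, called list members or else the 2 of largest ratio, and the 3 nearest to the 2 largest members. Hsd17b12, Scd1, Fads1, Fads2, Acly, Me1, Mlycd, Fasn, Ehhadh, Ppargc1a, Srebf1, Mlxipl, Ucp1, Awat2, Olah, Cidea, Prdm16, Cox8b and Cox7a1 were added after their values were seen. The other gene lost in DKO is not reported here. Python 3.11.15, numpy 2.4.6, pandas 2.3.3 and matplotlib 3.10.9 were used.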

Additional observations from a re-analysis of the deposited data

How the results depend on the processing

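Elovl3, Elovl5 and Elovl6 kept their direction in all 8 alternatives run (9 for Elovl5), which are not independent of each other. The alternatives include each array alone, whose directions were already given, and the software's ratios and series table, which hold nearly the same values. Elovl3 ranged from 1.004 to 1.16, moving past its SD with offset 16 (1.04), the scanner software's ratios and the series value table (1.05 each) and median centring (1.16). Elovl5 ranged from −0.84 to −0.54 and Elovl6 from −0.51 to −0.18. Elovl1 turned to 0.044 with median centring. Elovl2 turned sign with median centring (0.027) and on the first array, which has DKO in Cy5, taken alone (0.057). Elovl4, not measured, read −0.32 by either set of software values (its ratios, the series table) and −0.088 with median centring. Elovl3 stayed the 1 Elovl gene called higher in every setting but the 3-fold rule (0), and 1 Elovl gene, Elovl5, was called lower with the 1.5-fold rule and the error model. Genes called higher numbered 41 by either set of software values, 75 at 1.5-fold, 6 at 3-fold, 108 by the error model and 21 to 44 on single arrays. Genes lower numbered 12 with offset 16, 20 by either set of software values, 48, 0 and 83 under those same rules, and 6 to 29 on single arrays. For probes, against 32 higher and 7 lower, the counts were 61 and 33 by either set of software values, 104 and 74 at 1.5-fold, 7 and 0 at 3-fold, and 160 and 137 by the error model. With offset 16, 13 probes were lower, and single arrays gave 33 to 65 higher and 9 to 39 lower. The median of elongation cycle partners was 0.25 with median centring, 0.089 over all probes and 0.057 to 0.081 on single arrays. That of acyl-CoA synthetases was 0.041 with median centring and −0.036 to 0.021 on single arrays. Single arrays gave medians of −0.093 to 0.22 for peroxisomal genes, −0.030 to 0.15 for regulators and −0.11 to 0.010 for desaturases. For ceramide genes they were −0.14 to −0.032, and for supply genes −0.62 to −0.017. These single-array medians cover the genes measured on that array alone. Over the 6 ceramide genes measured on both, the medians were −0.18 on the first array and 0.10 on the reversed one. Of 11 alternatives each, the median kept its sign in 11 for elongation partners and supply genes, 10 for peroxisomal genes and regulators, 9 for desaturases, 8 for acyl-CoA synthetases and 4 for ceramide genes. The cause was not tested. Median centring without loess moved the median of all measured genes to 0.055, and to 0.11 on the first array. No paired analysis was possible because only 1 replicate per genotype was counted, although every ratio is already a comparison within an array. Faint signal limits Elovl2 and Elovl4.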
